A study of Mus musculus with 6 samples.

Results

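The Slc25a genes encode the mitochondrial carriers, and their transcripts were followed here in a mouse B-cell leukaemia across a fast. All table rows whose name is Slc25a and a number were taken, which gave 47 genes of the 37732 joined over the 6 libraries. Of these, 40 passed a filter on low counts that kept 14236 genes in all. Expression was measured by RNA-seq in leukaemia cells from C57BL/6 mice that had received lineage-negative fetal liver cells expressing N-Myc and a GFP reporter, so all groups carry the same oncogene. GFP-positive, B220-positive cells were sorted from bone marrow of control mice on normal feed, mice fasted for 1 day and mice fasted for 2 days. The mice were fasted once GFP-positive cells made up a majority of blood cells, per the labels. No label gives the age of the mice or how many stood behind a library.

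Each group has 2 libraries, called run 1 and run 2, with 19368326 to 45862844 gene reads. The squared difference between the runs of a group, divided by its sampling variance, was scaled so that a median of 1 means sampling noise alone. On total reads, which the levels use, its median over all genes was 1.36 to 1.45 for runs of 1 group and 6.28 to 18.3 for runs of different groups. Unique reads gave 1.12 to 1.14 for runs of 1 group, against 4.77 to 14.2 across groups. The runs thus differed slightly more than sampling noise over all genes, with 3.9 to 4.7% of genes beyond 3 SD on total reads. Over the 40 carriers the ratio within groups was 0.72 to 1.05 on total reads and 0.451 to 0.961 on unique reads. Slc25a35, with 7.18% of its reads unique, was beyond 3 SD in 2 of 3 groups on total reads and in 0 on unique reads. The runs of a group were counted as 1 sample (n = 1), differences between groups lack a replicate check, and no p-value is given. Levels are CPM, total gene reads scaled to the depth of the library with TMM factors, averaged over the runs. A gene is called higher or lower where the mean and each run differed by at least 1.5-fold in the same direction. Intervals in brackets are exact 95% intervals of a ratio of reads and cover counting error only.

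Mitochondrial carriers are small proteins of the inner mitochondrial membrane that exchange metabolites between the cytosol and the matrix. They pass ADP, ATP and phosphate for oxidative phosphorylation, carboxylates and amino acids for the citrate cycle and for synthesis, acylcarnitines for fat oxidation, and cofactors and iron. A few family members sit elsewhere, such as the peroxisomal carrier encoded by Slc25a17. In fasting, tissues that burn fat rely on acylcarnitine import, and the aspartate/glutamate carriers are part of the shuttle that brings reducing equivalents from cytosolic NADH into the matrix.

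The sum of the Slc25a genes was near level across the fast, with 53.9 to 56.0% of it from Slc25a3, Slc25a4 and Slc25a5. Their summed level was 2919 and 2933 CPM in the control runs, 2989 and 3004 CPM in the 1-day runs, and 2918 and 2875 CPM in the 2-day runs. The 1-day runs lay a little above the others, and the 2-day runs a little below control. This sum leaves out family members under other symbols. Of these, Ucp2 averaged 2025 CPM in control, 2156 CPM after 1 day and 1522 CPM after 2 days. Of the 40 carriers above the filter, 28 stayed under 1.5-fold in every run of all 3 comparisons. The share of all genes that did so was not computed. Between 2-day and control libraries, 25 of 40 carriers in run 1 and 20 in run 2 lay beyond 3 SD on total reads. Over all genes the shares were 48.6% and 48.3%. At 2 days 4 carriers were called. Slc25a13, Slc25a12 and Slc25a51 were lower and Slc25a45 was higher.

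Per length, the carriers spanned a wide range. The mean RPKM deposited by the authors, over 6 libraries, ran from 0.223 for Slc25a43 to 506 for Slc25a5, with a median of 8.35 over the 40 genes. Slc25a5, the adenine nucleotide translocase 2 gene, stood at 487 and 490 RPKM in the control runs, 514 and 512 RPKM after 1 day, and 516 and 518 RPKM after 2 days. The next were the phosphate carrier Slc25a3 (85.9 to 91.8 RPKM over the libraries) and Slc25a4, the adenine nucleotide translocase 1 gene (78.6 to 82.3 RPKM). These ranges do not overlap, so the order of the top 3 holds in every library. The mitoferrin genes Slc25a37 and Slc25a28, which encode iron importers, followed at 36.8 to 58.7 RPKM and 29.8 to 44.0 RPKM, and their ranges overlap. The next carriers, Slc25a17 at a mean of 34.8 RPKM and Slc25a39 at 32.8 RPKM, lie within the range of Slc25a28. RPKM counts intron reads too, and only 58.0% of Slc25a28 reads were exonic, against 89.6% for Slc25a17 and 99.5% for Slc25a39. The place of Slc25a28 above these 2 genes thus includes intron reads. The spread of Slc25a37 lies between the runs, whose gene tables give it exon lengths of 4162 and 6021 bases. In CPM, which does not use length, its runs were at 253 and 254 in control, 259 and 259 after 1 day, and 230 and 233 after 2 days. Only 49.9% of Slc25a5 reads mapped uniquely, so its level may include reads of near-identical copies.

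**Figure D1:**
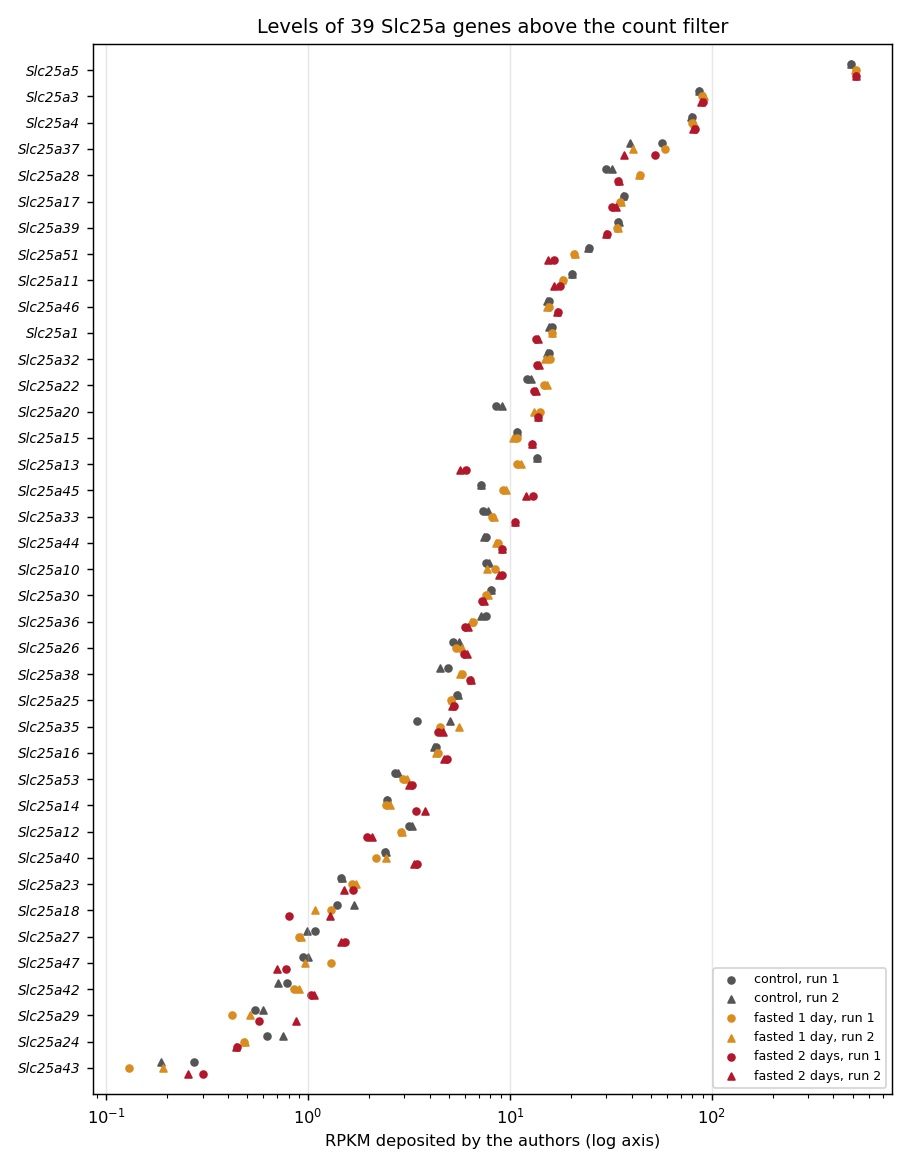
RPKM (horizontal log axis) of 39 of the 40 Slc25a genes above the count filter, ordered by mean level, with circles for run 1 and triangles for run 2 of control, 1-day and 2-day fasted leukaemia cells. Slc25a5 stands apart at 487 to 518 RPKM, while most genes differ far more from each other than between groups.

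The genes under the filter were Slc25a2, Slc25a21, Slc25a31, Slc25a34, Slc25a41, Slc25a48 and Slc25a54. They had 1 to 44 reads over all 6 libraries, and at that depth no difference could be detected. Slc25a31 encodes the testis form of the adenine nucleotide translocase, Slc25a2 another ornithine carrier and Slc25a21 the oxodicarboxylate carrier. On 4 chromosomes carriers lie next to each other, and in 3 of these pairs 1 gene lay far below its neighbour. Slc25a43 ends 18.4 kb before Slc25a5 on chromosome X, at 0.223 against 506 mean RPKM. Slc25a41 lies 2.06 kb from Slc25a23 on chromosome 17 (0.0086 against 1.58 RPKM), and Slc25a54 lies 6.46 kb from Slc25a24 on chromosome 3 (0.0031 against 0.538 RPKM). Slc25a29 and Slc25a47, 15.2 kb apart on chromosome 12, were both low, at 0.584 and 0.947 RPKM.

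The first comparison asks how a 1-day fast differs from normal feeding. No carrier was called: 0 of 40 were higher and 0 lower, where 4.3% of the 14236 genes were higher and 2.79% lower, 7.09% in either direction. The median log2 fold of the carriers was 0.01, against 0.00 over all genes, and 29 of 40 lay within 0.25 of 0. The lower and upper quartiles over all genes were -0.15 and 0.17, so most genes lay within that band too. Slc25a20, the carnitine/acylcarnitine carrier that admits long-chain fatty acids to the matrix, came nearest. It had 26.5 and 24.8 CPM at 1 day, against 16.4 and 17.5 CPM in control. The runs of the groups thus did not overlap, which with n = 1 a group does not show a spread between mice. Its log2 fold was 0.60 (0.69 in run 1 and 0.50 in run 2), and the ratio of reads 1.49 (1.38 to 1.61). Run 2 missed the 1.5-fold limit, 0.585 on the log2 scale. Without control run 2 or without 1-day run 2 it was called, at a log2 fold of 0.645 in each case. Without control run 1 a different gene, Slc25a24, was called lower at a log2 fold of -0.62.

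At 2 days Slc25a20 was still at 25.9 and 25.7 CPM, against 16.4 and 17.5 CPM in control, a log2 fold of 0.61 (0.66 and 0.55) that again missed the limit in run 2. It was called without control run 2, at 0.65. Between 2 and 1 days its log2 fold was 0.01. Among 15 measured genes of the carnitine shuttle and beta-oxidation, 0 were called at 1 day, and at 2 days 1 was higher and 0 lower. That gene was Cpt1a, which encodes the outer-membrane enzyme that makes acylcarnitines. It stood at 167 and 172 CPM at 2 days, against 104 and 106 CPM in control (log2 fold 0.70), with 144 and 137 CPM at 1 day. The list's median log2 fold was -0.05 at 2 days, and its other members ran from -0.55 for Crat, carnitine acetyltransferase, to 0.51 for Etfdh, an electron-transfer enzyme of beta-oxidation.

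The next comparison, 2 days of fasting against control, held the called carriers. Of 40, 1 was higher (2.5%) and 3 were lower (7.5%), where 9.52% and 10.1% of all genes were higher and lower. In either direction 19.6% of all genes were called, so the carriers' 4 of 40 lay below that share. Their median log2 fold was 0.08, against 0.01 over all genes. Of the 40 folds 25 were positive, where 51.1% were positive over all genes.

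**Figure D2:**
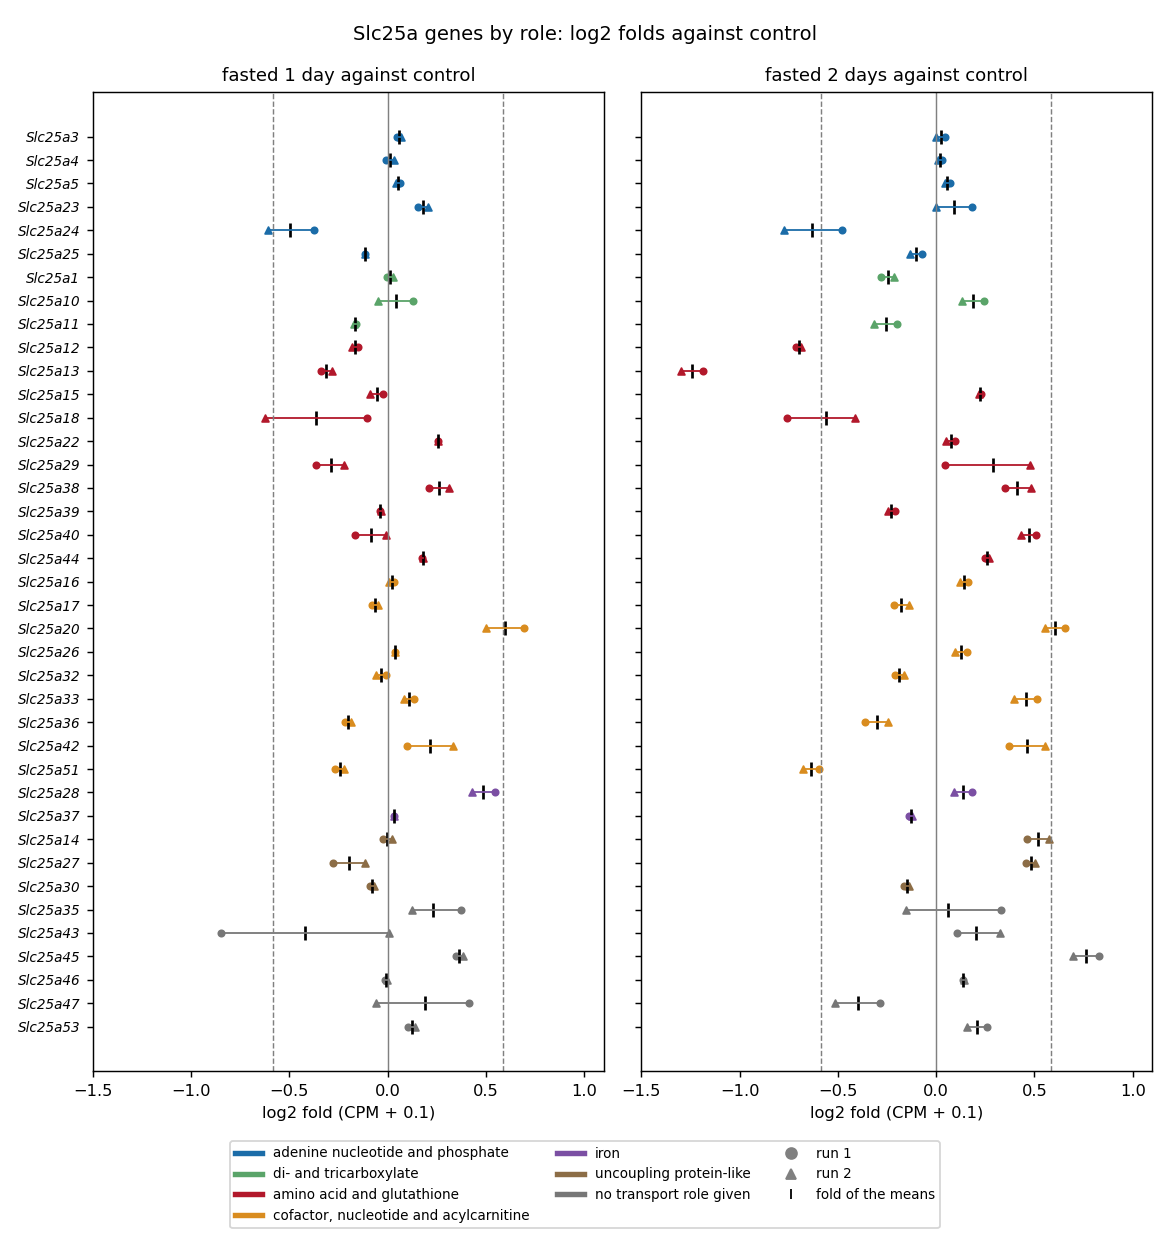
Log2 fold of CPM + 0.1 against control (horizontal axes) for 39 of the 40 Slc25a genes above the filter, grouped and coloured by role, after 1 day (left) and 2 days (right). Circles and triangles mark run 1 and run 2, the black tick the fold of the means, and dashed lines 1.5-fold; at 1 day no gene lies past a line in both runs, while at 2 days Slc25a13, Slc25a12 and Slc25a51 lie left and Slc25a45 right.

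Both aspartate/glutamate carriers were lower at 2 days. These proteins export aspartate from the matrix in exchange for glutamate and are controlled by calcium. Slc25a13, which encodes citrin and spans 6041218 to 6217118 on the minus strand of chromosome 6 (mm10), had 19.7 and 18.1 CPM at 2 days, against 44.9 and 44.7 CPM in control. The 1-day runs lay between, at 35.5 and 36.7 CPM, with no overlap between the runs of different groups. The log2 fold at 2 days was -1.24 (-1.19 and -1.30), and the ratio of reads 0.428 (0.398 to 0.459). At 1 day the log2 fold was -0.31 (-0.34 and -0.28). It was the only carrier past 2-fold in both runs at 2 days. Exon reads made up 75.7% of its reads in control, 73.7% after 1 day and 66.0% after 2 days, and on exon reads alone the log2 fold at 2 days was -1.44.

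Slc25a12, which encodes the paralogue aralar (chromosome 2, 71271063 to 71367749, minus strand), had 15.2 and 16.0 CPM at 2 days, against 24.9 and 25.8 CPM in control. Its 1-day runs, at 22.5 and 22.8 CPM, were below control and well above 2 days. The log2 fold was -0.70 at 2 days (-0.71 and -0.69; ratio of reads 0.606, 0.558 to 0.659) and -0.17 at 1 day. Per length, Slc25a13 exceeded Slc25a12 in every library, at 6.05 and 5.62 against 1.95 and 2.08 RPKM at 2 days, and at 13.6 and 13.6 against 3.16 and 3.28 RPKM in control.

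The other parts of the malate-aspartate shuttle were nearer to level. The 4 measured shuttle enzymes (Got1, Got2, Mdh1 and Mdh2, the cytosolic and mitochondrial aspartate aminotransferases and malate dehydrogenases) had 0 calls at 1 day and 0 at 2 days. Their log2 folds at 2 days were 0.08, -0.21, 0.04 and 0.00. Slc25a11, the oxoglutarate/malate carrier of the same shuttle, was at 38.5 CPM at 2 days against 45.98 CPM in control, a log2 fold of -0.26 (-0.20 and -0.32), under the limit.

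The promoter windows of the 2-day carriers with an entry are shown because Slc25a13 and Slc25a12 were lower together while Slc25a45 was higher. They are from RefSeq on GRCm38.p6, the mm10 assembly, and run from 250 bases before to 50 after the RefSeq start, 5′ to 3′ on the gene's strand. The authors' gene spans begin elsewhere: for Slc25a13 the RefSeq start lies 55 bases upstream of the deposited span, so the whole window is outside it, and for Slc25a12 it lies 6 bases upstream. Capitals mark an E-box, CACGTG, the hexamer bound by MYC and its relatives.
Slc25a13, chr6:6217124-6217423, minus strand: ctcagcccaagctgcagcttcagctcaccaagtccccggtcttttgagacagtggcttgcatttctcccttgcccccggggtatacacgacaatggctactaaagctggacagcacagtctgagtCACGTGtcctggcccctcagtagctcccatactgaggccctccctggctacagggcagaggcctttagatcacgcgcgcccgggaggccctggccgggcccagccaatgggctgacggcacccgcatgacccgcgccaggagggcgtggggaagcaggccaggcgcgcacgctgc
Slc25a12, chr2:71367706-71368005, minus strand: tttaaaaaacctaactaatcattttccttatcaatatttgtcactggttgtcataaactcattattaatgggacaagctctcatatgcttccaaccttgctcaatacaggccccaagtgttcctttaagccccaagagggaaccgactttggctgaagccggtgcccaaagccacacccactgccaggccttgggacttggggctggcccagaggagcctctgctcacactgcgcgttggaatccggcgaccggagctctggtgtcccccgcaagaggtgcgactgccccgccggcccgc
Slc25a45, chr19:5877572-5877871, plus strand: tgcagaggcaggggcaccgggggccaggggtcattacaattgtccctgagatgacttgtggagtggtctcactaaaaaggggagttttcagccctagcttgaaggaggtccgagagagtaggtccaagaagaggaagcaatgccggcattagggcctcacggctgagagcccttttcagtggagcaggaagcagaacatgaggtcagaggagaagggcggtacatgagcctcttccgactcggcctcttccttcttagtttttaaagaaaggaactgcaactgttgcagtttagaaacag

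The Slc25a13 window is the richest of the 3 in G and C, at 65.0%, against 54.3% for Slc25a12 and 52.7% for Slc25a45, and holds 17 CpG dinucleotides against 12 and 7. Its E-box begins 125 bases before the RefSeq start, which is 180 bases before the deposited span, and the other windows hold none. Windows were found for 36 of the 47 carriers, 46 windows in all, and 4 motifs were searched on both strands. CACGTG occurred in 8 of the 46 windows (7 genes) and in 7.15% of all 32851 windows. Its 7 genes were Slc25a1, Slc25a13, Slc25a14, Slc25a15, Slc25a31, Slc25a33 and Slc25a36. Those above the filter went both ways at 2 days against control. Log2 folds were 0.52 for Slc25a14, 0.46 for Slc25a33 and 0.22 for Slc25a15. They were -0.25 for Slc25a1, -0.30 for Slc25a36 and -1.24 for Slc25a13. Any bearing of the motif on these levels was not tested. The cAMP response element TGACGTCA occurred in 2 windows, those of Slc25a25 and Slc25a36, and in 1.79% of all windows. The amino acid response element TTGCATCA and the palindromic NRF1 site occurred in 0 of the 46, and in 0.895% and 0.971% of all windows.

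Slc25a51, which encodes the NAD carrier of the inner membrane (chromosome 4, 45395923 to 45408766, minus strand), had 96.2 and 89.5 CPM at 2 days, against 145 and 143 CPM in control. The 1-day runs were at 121 and 123 CPM, so the runs of different groups did not overlap. Its log2 fold at 2 days was -0.64 (-0.59 and -0.68; ratio of reads 0.653, 0.631 to 0.675), just past the limit. The call is lost on unique gene reads (-0.63), on the authors' RPKM (-0.61), without control run 1 (-0.62) and without 2-day run 2 (-0.58), since 1 run or the mean then falls short. Of its reads, 86.2% mapped uniquely.

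Slc25a45, a carrier to which no substrate is assigned here, was the 1 carrier called higher. It had 36.6 and 33.3 CPM at 2 days, against 20.5 and 20.5 CPM in control, with 26.1 and 26.8 CPM at 1 day. The log2 fold was 0.76 at 2 days (0.83 and 0.69; ratio of reads 1.73, 1.61 to 1.85) and 0.36 at 1 day (0.35 and 0.38). The gene spans 5877808 to 5885766 on the plus strand of chromosome 19, and 95.4% of its reads were exonic.

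**Figure D3:**
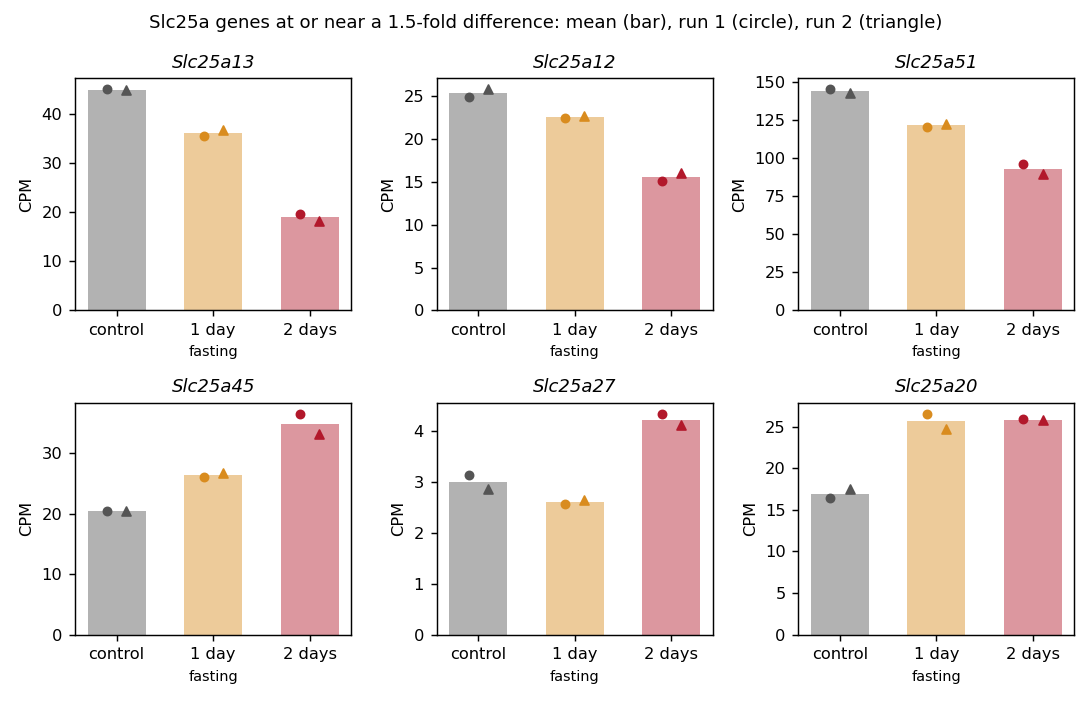
CPM (vertical axes, from 0) of 6 Slc25a genes in control, 1-day and 2-day fasted leukaemia cells, with bars for the mean and a circle and a triangle for run 1 and run 2. Slc25a13, Slc25a12 and Slc25a51 are lowest at 2 days, Slc25a45 and Slc25a27 highest at 2 days, and Slc25a20 alike at 1 and 2 days, above control.

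The third comparison sets 2 days against 1 day of fasting, and it shares samples with those above. Of 40 carriers, 1 was higher and 1 lower, where 5.63% and 8.59% of all genes were called, 14.2% in either direction. Slc25a13 was the lower one, at a log2 fold of -0.93 (-0.85 and -1.02; ratio of reads 0.529, 0.492 to 0.568). Slc25a27, which encodes uncoupling protein 4, was higher, at 4.33 and 4.11 CPM at 2 days against 2.56 and 2.63 CPM at 1 day (log2 fold 0.68; 0.74 and 0.62). Control lay between them, at 3.13 and 2.86 CPM. Only 42.1% of its 620 reads over the 6 libraries were exonic. Its call is lost with a pseudocount of 1 CPM (0.54) and on exon reads, at a fold just under the limit.

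Low genes moved in and out of the calls of this comparison. On exon reads 4 carriers were called: Slc25a29, a basic amino acid carrier, and Slc25a43 were higher, and Slc25a13 and Slc25a18 were lower. Without 1-day run 2 there were 5, with Slc25a27, Slc25a40 and Slc25a43 higher and Slc25a13 and Slc25a47 lower. Without that run the log2 folds were 0.64 for Slc25a40, 0.85 for Slc25a43 and -0.78 for Slc25a47. Slc25a43 had 30 reads at 2 days against 23 at 1 day, and Slc25a47 had 70 against 134. Slc25a29 had 103 against 96 reads from libraries of unequal depth, a log2 fold of 0.58 (0.41 and 0.70), and was called higher without 2-day run 1 (0.83).

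By role, the adenine nucleotide and phosphate carriers include the most abundant of the Slc25a genes. Of 8 genes 6 passed the filter, and 0 were called in any comparison. Slc25a3, Slc25a4 and Slc25a5 held 53.9% of the summed CPM of the Slc25a genes in control, 54.5% after 1 day and 56.0% after 2 days. Their log2 folds at 2 days were 0.02, 0.02 and 0.06. The calcium-regulated ATP-Mg/phosphate carriers Slc25a23 and Slc25a25 stood at 0.09 and -0.10. Their relative Slc25a24 had 1.62 and 1.58 CPM at 2 days, against 2.30 and 2.77 CPM in control, a log2 fold of -0.63 (-0.48 and -0.77) on 90 against 169 reads. It was called lower without control run 1, at -0.75.

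The di- and tricarboxylate carriers had 0 of 3 called in each comparison. The citrate carrier Slc25a1, which supplies cytosolic citrate for lipid synthesis, was at 31.2 CPM at 2 days against 37.1 CPM in control (log2 fold -0.25). The dicarboxylate carrier Slc25a10 was at 32.8 against 28.8 CPM (0.19).

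Among the 10 measured carriers of amino acids and glutathione, the aspartate/glutamate pair held the calls at 2 days, 2 of 10 where 19.6% of all genes were called. The group's median log2 fold was 0.15. Slc25a40, a paralogue of the glutathione carrier, was at 10.2 and 9.79 CPM at 2 days, against 7.16 and 7.23 CPM in control (log2 fold 0.47), and Slc25a39, the glutathione carrier itself, was at 87.1 against 102 CPM (-0.23). The paralogues thus lay on opposite sides of 0, each under the limit, and Slc25a39 was the more abundant per length, at 32.8 against 2.71 mean RPKM. The glutamate carriers also differed in level: Slc25a22 was at 13.6 and Slc25a18 at 1.26 mean RPKM. Slc25a22 was highest at 1 day, at 63.1 and 65.6 CPM, against 52.9 and 54.9 CPM in control (log2 fold 0.26). For Slc25a18 only 19.3% of 353 reads were exonic, while RPKM counts all of them. It had 1.16 and 1.84 CPM at 2 days, against 2.04 and 2.48 CPM in control (log2 fold -0.56; -0.76 and -0.41), and was called lower without 2-day run 2, at -0.90, while without 2-day run 1 it was at -0.28.

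Slc25a15, the ornithine carrier of the urea cycle, was at 47.3 and 46.7 CPM at 2 days, against 40.3 and 40.2 CPM in control (log2 fold 0.22). Among 6 measured urea cycle and ornithine enzymes, 0 were higher and 1 lower at 1 day, and 1 was higher and 1 lower at 2 days. The higher one was Ass1, argininosuccinate synthase, which consumes aspartate in the cytosol. It had 725 and 717 CPM at 2 days, against 350 and 342 CPM in control (log2 fold 1.06), with 487 and 498 CPM at 1 day. The lower one at both times was Arg1, arginase 1, at 0.68 CPM at 2 days against 1.24 CPM in control. Otc and Cps1, which act in the matrix of liver mitochondria, were each at 0 reads in control and at 2 days.

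The cofactor, nucleotide and acylcarnitine carriers, 10 genes that all passed the filter, had Slc25a51 as their 1 call. Slc25a33 and Slc25a36, which carry pyrimidine nucleotides, lay on opposite sides of 0 at 2 days, at log2 folds of 0.46 (0.51 and 0.40) and -0.30 (-0.36 and -0.25). The coenzyme A carrier Slc25a42 was at 6.64 CPM at 2 days against 4.80 CPM in control (log2 fold 0.46). The folate and FAD carrier Slc25a32 was at -0.19, and among 9 measured enzymes of mitochondrial folate metabolism 0 were called at 1 day and 0 at 2 days.

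Slc25a28, the mitoferrin 2 gene, was highest at 1 day, at 70.7 and 69.9 CPM, against 48.4 and 51.9 CPM in control (log2 fold 0.49; 0.55 and 0.43). At 2 days it was at 55.0 and 55.2 CPM, near control (0.13). Of its reads 58.0% were exonic, and on exon reads the 1-day log2 fold was 0.42. Slc25a37, mitoferrin 1, the main iron importer of developing red cells, was at 230 and 233 CPM at 2 days, against 253 and 254 CPM in control (log2 fold -0.13). Slc25a38, the glycine carrier that feeds haem synthesis, was at 18.5 and 18.5 CPM at 2 days, against 14.5 and 13.2 CPM in control (0.41).

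Erythroid transcripts differed in the same libraries. Of 11 measured erythroid markers 5 were higher and 0 lower at 2 days, where 9.52% of all genes were higher and 10.1% lower. At 1 day 0 of these markers were called, where 7.09% of all genes were. The markers' summed level was 445 to 454 CPM in control, 564 to 577 CPM after 1 day and 998 to 1001 CPM after 2 days. No marker was at 0. Slc25a37 had its lowest level in the group in which the erythroid markers were highest. Among 9 haem synthesis genes, at 2 days 1 was higher, the erythroid Alas2 (10.3 and 10.5 against 3.39 and 3.75 CPM), and 1 lower, Alad (24.6 and 23.6 against 38.8 and 39.5 CPM). In sorted bulk samples, fewer cells of a type and less RNA per cell cannot be told apart, and the part of red cell RNA in the levels of the iron and glycine carriers was not tested.

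Other marker lists were also followed at 2 days, and their levels do not count cells. The 9 measured B-lineage markers summed to 2780 to 2811 CPM at 2 days and 2781 to 2783 CPM in control, but 1 was higher and 3 were lower. Vpreb1 and Igll1, which encode the surrogate light chain of early B-cell precursors, were near 0 at 2 days. Vpreb1 had 1.38 and 1.16 CPM at 2 days, against 57.9 and 56.5 CPM in control (log2 fold -5.39), with 46.6 and 49.7 CPM at 1 day. Igll1 had 1.06 and 1.00 CPM at 2 days, against 57.6 and 59.9 CPM in control (-5.70), with 51.2 and 52.9 CPM at 1 day. Blnk, an adaptor of B-cell receptor signalling, was lower (-0.60). Ms4a1, which encodes CD20 of more mature B cells, had 106 and 94.3 CPM at 2 days, against 32.2 and 26.3 CPM in control (1.77). Of the 9 markers 4 were thus called at 2 days. Of all genes 9.52% were higher and 10.1% lower at 2 days, 19.6% in either direction. Monocyte and dendritic cell markers had 4 of 8 higher and 1 lower (147 to 155 against 98.97 to 100.2 CPM). Neutrophil markers had 1 of 10 higher and 0 lower (877 to 894 against 1004 to 1021 CPM). T and NK markers had 0 of 8 higher and 3 lower (2.65 to 2.84 against 3.89 to 4.34 CPM). At 1 day the calls were 1 higher and 0 lower among B-lineage markers, 1 and 0 among monocyte and dendritic cell markers, 0 and 4 among neutrophil markers, and 4 and 0 among T and NK markers. Of all genes 4.3% were higher and 2.79% lower at 1 day. No marker of these lists was at 0 in the mean of a group, and their part in the called carriers was not tested.

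Relatives of the uncoupling proteins lay on both sides of 0 at 2 days, with 0 of 3 called against control. Slc25a14 was at 8.58 and 9.37 CPM, against 6.21 and 6.25 CPM in control (log2 fold 0.52; 0.46 and 0.58), while Slc25a30 was at -0.15. Family members filed under other symbols included Ucp2, uncoupling protein 2, which at 270 RPKM in control, 291 RPKM after 1 day and 206 RPKM after 2 days was second per length only to Slc25a5 among the carriers. It had 1517 and 1526 CPM at 2 days, against 2008 and 2042 CPM in control, a log2 fold of -0.41 that was under the limit. The outer-membrane relatives Mtch1 and Mtch2 were at 0.22 and -0.01, Ucp3 had 8 reads at 2 days against 11 in control, and Ucp1 had 0. Of these 5 genes 3 passed the filter and 0 were called in any comparison.

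The machinery of mitochondrial protein import was followed in 13 genes. They include the small chaperones Timm9 and Timm10 and the receptor Tomm70a, which serve the TIM22 pathway of the carriers, and Timm17a, Timm17b and Timm23 of the TIM23 complex. Of the 13, 0 were called in each comparison, where 7.09%, 19.6% and 14.2% of all genes were called at 1 day, at 2 days and between them. Timm17b averaged 25.3 CPM at 2 days, against 36.3 CPM in control (log2 fold -0.52), under the limit. The list had median log2 folds of -0.07 at 1 day and 0.06 at 2 days. Among 18 measured genes of other mitochondrial transporters and channels, 1 was higher and 0 lower at 1 day and again at 2 days. It was Sfxn3, a sideroflexin of the serine transporter family, at 19.5 and 19.5 CPM at 2 days, against 7.73 and 8.76 CPM in control (log2 fold 1.23). At 1 day its runs were at 15.9 and 14.6 CPM (0.88). The mitochondrial pyruvate carrier genes Mpc1 and Mpc2 stood at 0.42 and 0.27 at 2 days.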

How the data were processed

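The data are RNA-seq of sorted leukaemia cells, 51-base single-end reads, in 6 libraries. The submitters' processing notes name TopHat2 and the build mm10. How genes were counted, on which annotation and with or without strand, is not given in the sources used here, so reads of overlapping genes cannot be told apart. Of the 47 carriers, 16 overlap an annotated gene (GENCODE M21) on the opposite strand. The authors deposited, per library, whole read counts per gene (total, unique, exon and intron reads). RPKM was deposited by the authors beside the counts, and its values equal total gene reads per kilobase of exon length times 1 constant per library.

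The tables of run 1 and run 2 list 38355 and 38924 genes and were matched on position for 37429 genes and on name plus chromosome for 303 more. Genes were kept with filterByExpr (minimum count 10) and scaled with TMM in edgeR 4.0.16, under R 4.3.3; size factors came from DESeq2 1.42.0. Log2 folds are of mean CPM with 0.1 CPM added, which understates folds of low genes. Run folds pair run 1 with run 1 and run 2 with run 2. The planned rule counted libraries as 1 sample if they agreed within sampling noise for most genes. On total reads 3.9 to 4.7% of genes lay beyond 3 SD between the runs of a group, which was taken to meet it. The edgeR test that would otherwise have applied was thus not run. Ratios of pooled reads have exact (Clopper-Pearson) 95% intervals.

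The carriers and all lists were chosen with earlier results of these data known. Per-run values are given for carriers called in any comparison, for the top 5 by RPKM, and for others named after their values were seen. Lists are described by counts and medians. Values of 1 carrier above the filter are not reported here, and it enters the counts, medians and sums only.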

Additional observations from a re-analysis of the deposited data

How the results depend on the processing

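No paired analysis was possible because each group counted as 1 sample with 2 runs, and the results come from no test. The count of carriers differing at 2 days against control, 4, was 4 with DESeq2 size factors, without the filter, with a pseudocount of 1 CPM, and on exon reads, and 3 on unique reads and on the authors' RPKM. It was 1 under a 2-fold rule and 4 to 5 without any 1 library. The count at 1 day, 0, stayed at 0 under those settings and was 0 to 1 without any 1 library. The count for 2 days against 1 day, 2, was 1 with a pseudocount of 1 CPM, 4 on exon reads, 0 under the 2-fold rule, and 2 to 5 without any 1 library. The rules' own construction lowers the 2-fold counts; for the others the cause was not tested. Of 360 recomputed log2 folds of 12 carriers, 38 moved by more than the SD between runs, and 0 of the called ones changed sign. The SD is that of each gene and comparison, so folds whose runs disagree are less readily counted as moved. Some folds that were not called crossed 0. Slc25a18 ran from -0.69 to 0.08 between 2 and 1 days, and Slc25a29 from -0.02 to 0.54 at 2 days. At 1 day Slc25a47 ran from -0.02 to 0.38. Depth limits the low genes: for carriers above the filter the run folds differed by a median of 0.05 at 1 day and 0.08 at 2 days, and by up to 0.85 and 0.48.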
